A study of Homo sapiens with 5 samples.

Results

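The genes described here carry out actin filament turnover in RH4 cells: WDR1, the twinfilins TWF1 and TWF2, the ADF/cofilin proteins CFL1, CFL2 and DSTN, the cyclase-associated proteins CAP1 and CAP2, and the profilins PFN1 and PFN2. They were taken by symbol from the expression table, and all 10 were found among its 13822 genes. The group was selected on the contrast of si-SCR against si-circVAMP3, so the values of its members in that contrast are a description, and no test of them is used as support. RH4 is an established cell line of alveolar rhabdomyosarcoma, a soft tissue tumour with features of developing skeletal muscle. The cells received 30 nM of a control siRNA (si-SCR, 3 libraries) or of an siRNA directed against the back-splice junction of circVAMP3, a circular RNA made from exons of VAMP3 (si-circVAMP3, 2 libraries). Both groups spent 24 h with the siRNA and then 24 h in fresh medium. The libraries were made from polyadenylated RNA, and the question put to them is which mRNA levels the knock-down alters.

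Levels are given as FPKM, the number of fragments per kilobase of gene, scaled to the size of the library. The deposited values could be resolved into whole fragments for 13822 of 13822 genes. A whole factor shared by all libraries cancels in this step. The recovered length equalled the annotated gene length for 69.0% of the genes that have one. For the others such a factor may be missing from the fragment numbers. The si-SCR libraries 1, 2 and 3 held 26441490, 25046768 and 24934487 fragments in the listed genes, and the si-circVAMP3 libraries 1 and 2 held 18625463 and 28818756. For the 10 genes the smallest number of fragments in any library was 386, for TWF2, which corresponds to a counting error of 5.09%. Library si-SCR 3 stood somewhat apart from its group. Its gene-by-gene log2 differences had an SD of 0.18 against si-SCR 1 and 0.16 against si-SCR 2, whereas si-SCR 1 and si-SCR 2 differed with an SD of 0.12. Between the conditions this SD lay between 0.26 and 0.29. As the samples are bulk cultures, less RNA per cell and fewer cells of a kind cannot be told apart.

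Actin filaments grow at the barbed end from monomers that carry ATP and are taken apart after the nucleotide has been hydrolysed. ADF/cofilin proteins bind and sever the aged filament, WDR1 speeds the disassembly of filaments decorated with cofilin, and twinfilin acts on filament ends and binds monomers. Cyclase-associated protein helps to release the monomers from cofilin and to recharge them, and profilin returns them to the growing end, for instance to formins. In skeletal muscle several of these families use a muscle-enriched member beside a widely expressed one, such as CFL2 beside CFL1 and CAP2 beside CAP1.

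The sequences of the siRNA used for the knock-down are shown because stretches matching it occur in the transcripts of some of these genes. Written 5′ to 3′, the strand listed by the study and the strand complementary to its first 19 bases read as follows, with capitals marking bases 2 to 8 of the complementary strand, its seed, and their counterpart on the listed strand.
si-circVAMP3, listed strand: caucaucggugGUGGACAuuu
si-circVAMP3, complementary strand: aUGUCCACcaccgaugaug
A transcript that pairs with this seed contains the letters GUGGACA. One transcript per gene (MANE Select or canonical, GENCODE release 44, GRCh38) was searched on its sense strand. Among the 10 genes, WDR1 and TWF1 held the letters, each at 2 places, and the other 8 held none. Of 10263 protein-coding genes tested, 69.0% held them nowhere in the transcript. The matches are printed as 19-base windows of the transcript with the 7 matching letters in capitals.
WDR1, coding part, exon 5: ucaucaacagcGUGGACAu
WDR1, coding part, exon 15: ucugucaaggaGUGGACAa
TWF1, coding part, exon 6: cugacguggguGUGGACAc
TWF1, 3′ UTR, exon 9: caugccuucugGUGGACAu
On GRCh38 the capital letters of the WDR1 windows lie at chr4:10097809-10097815 and chr4:10075390-10075396, on the minus strand. Those of the TWF1 windows lie at chr12:43797809-43797815 and chr12:43793769-43793775, also on the minus strand. The TWF1 site in the 3′ UTR, which begins at base 1810 after the stop codon, shares an unbroken run of 10 bases with the listed strand. A match of letters is a description of the sequence and does not show that the siRNA acted there.

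VAMP3, the gene from which the circular RNA is made, was examined first. Its linear mRNA, which encodes a vesicle-associated membrane protein, was at 36.4, 35.4 and 37.4 FPKM in the si-SCR libraries and at 29.4 and 30.2 FPKM in the si-circVAMP3 libraries. The groups did not overlap, and the log2 difference in FPKM + 1 (si-circVAMP3 minus si-SCR) was -0.28 (SE 0.04), with an adjusted p of 0.00471 (limma, Benjamini-Hochberg over all genes tested), lower in 2 of 2 si-circVAMP3 libraries. The circle has no poly-A tail and no row in the table, so no value is given for it. VAMP3 holds GUGGACA at 2 places of its coding part, one of them within a run of 12 bases shared with the listed strand.

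The markers of the cell type were present in every library. All 10 markers of alveolar rhabdomyosarcoma and skeletal myoblasts were listed. DES, the muscle intermediate filament protein, had the highest FPKM of them, 277 ± 24.3 in si-SCR (SD, n = 3). Divided by the length of 1 transcript per gene instead, FGFR4 stood above DES in si-SCR, at 356.2 against 303.9 scaled fragments per kilobase. MYOD1, which specifies the muscle lineage, was at 115, 105 and 84.3 FPKM in si-SCR and 106 and 127 FPKM in si-circVAMP3. MYOG, the myogenin gene that acts at the onset of differentiation, was at 175, 179 and 149 FPKM against 101 and 96.6 FPKM, and it fell by 0.76 on the log2 scale (SE 0.08, adjusted p = 0.0015, limma with Benjamini-Hochberg). It was the 1 marker of the 10 past both thresholds used here, an adjusted p under 0.05 and a log2 difference of at least 0.58 in size, beside 2.16% of all genes tested in the lower direction. FOXO1 passed the adjusted p alone, with a log2 difference of -0.25 (SE 0.06, adjusted p = 0.0227, limma with Benjamini-Hochberg). Without si-SCR 3 the adjusted p alone was also passed by DES, FGFR4 and CDH15, with log2 differences of -0.18, -0.37 and -0.52. None of 3 leukocyte and 3 epithelial markers was listed, and of 3 endothelial markers only PECAM1 was, at 0.078 to 0.153 FPKM. The part of the lower MYOG level in the differences described next was not tested.

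Upon circVAMP3 knock-down the clearest differences among the 10 genes were lower levels of WDR1, TWF1 and PFN2, while TWF2 and PFN1, paralogues of TWF1 and PFN2, overlapped the control range. WDR1, the cofactor of cofilin (ENSG00000071127, chr4:10068089-10116972), was at 43.6, 44.4 and 42.6 FPKM in si-SCR and at 15.1 and 14.4 FPKM in si-circVAMP3. Each si-circVAMP3 library lay far below each si-SCR library, and the mean level was 0.339 of the control mean. The log2 difference was -1.50 (SE 0.04). Behind these values stood 9093, 8691 and 8321 fragments in si-SCR and 2186 and 3254 in si-circVAMP3.

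TWF1, which encodes twinfilin-1 (ENSG00000151239, chr12:43793723-43806328), was at 20.5, 19.7 and 20.9 FPKM in si-SCR and at 6.26 and 5.79 FPKM in si-circVAMP3. The groups did not overlap, the mean ratio was 0.296, and the log2 difference of -1.60 (SE 0.05) was the lowest of the 10. WDR1 and TWF1 are also the 2 members whose transcripts hold the seed match printed above. TWF2, which encodes twinfilin-2 (ENSG00000247596), was at 12.01, 12.7 and 9.42 FPKM in si-SCR and 12.1 and 13.3 FPKM in si-circVAMP3. Here the groups overlapped, with the lowest value in si-SCR 3, and the log2 difference was 0.16 (SE 0.12), or 0.04 without si-SCR 3 and 0.09 without si-circVAMP3 2.

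In the ADF/cofilin family, CFL1 and CFL2 differed in opposite directions, each by less than the fold threshold of 0.58. CFL1, the non-muscle cofilin (ENSG00000172757), was at 152, 158 and 153 FPKM in si-SCR and at 184 and 185 FPKM in si-circVAMP3, a log2 difference of 0.26 (SE 0.04). CFL2, the muscle cofilin (ENSG00000165410), was at 49.5, 50.0 and 52.8 FPKM in si-SCR and at 40.2 and 39.1 FPKM in si-circVAMP3, a log2 difference of -0.35 (SE 0.04). In both genes the groups did not overlap, CFL1 being higher and CFL2 lower in each si-circVAMP3 library. DSTN, which encodes destrin, also called ADF (ENSG00000125868), overlapped between the groups at 23.9, 21.6 and 25.5 FPKM against 22.2 and 21.8 FPKM. Its log2 difference was -0.10 (SE 0.07), or -0.16 without si-SCR 2 and -0.05 without si-SCR 3.

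The cyclase-associated proteins also differed in opposite directions, each by less than the fold threshold. CAP1, the widely expressed form (ENSG00000131236), was at 99.3, 104 and 107 FPKM in si-SCR and at 131 and 124 FPKM in si-circVAMP3, with a log2 difference of 0.31 (SE 0.05). CAP2, the form enriched in striated muscle (ENSG00000112186), was at 18.9, 19.3 and 20.5 FPKM in si-SCR and at 15.7 and 15.3 FPKM in si-circVAMP3, with a log2 difference of -0.31 (SE 0.05). Neither gene had overlapping groups.

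Of the profilins, PFN2, a form best known from neurons (ENSG00000070087), was at 198, 192 and 209 FPKM in si-SCR and at 101 and 98.0 FPKM in si-circVAMP3. Both si-circVAMP3 libraries were well below the control range, the mean ratio was 0.498, and the log2 difference was -0.998 (SE 0.05). PFN2 holds no GUGGACA in the transcript searched. PFN1, the ubiquitous profilin (ENSG00000108518), was at 647, 694 and 696 FPKM in si-SCR and at 633 and 661 FPKM in si-circVAMP3. Its groups overlapped and its log2 difference was -0.07 (SE 0.05), or -0.25 with quantile normalisation and -0.04 without si-circVAMP3 1.

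**Figure D1:**
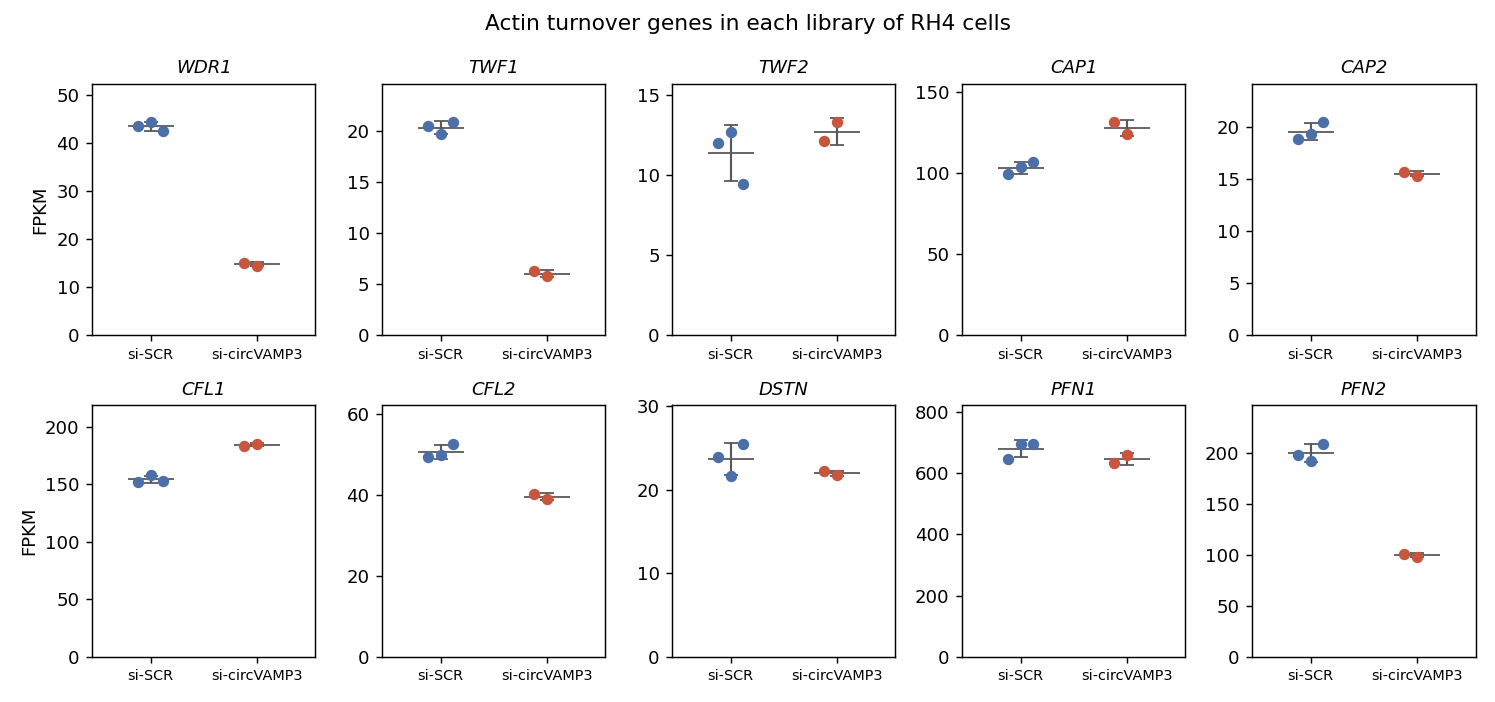
FPKM of the 10 actin turnover genes (vertical axes, each starting at 0) in the 3 si-SCR libraries (blue) and the 2 si-circVAMP3 libraries (red); points are libraries, and the long bars and capped lines are the mean and SD of each group. WDR1, TWF1 and PFN2 lie far below the control range, CFL2 and CAP2 a little below it, CFL1 and CAP1 above it, and TWF2, DSTN and PFN1 overlap it.

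Counted together, 3 of the 10 genes were past both thresholds in the lower direction, beside 2.16% of the 11253 genes tested. In the higher direction the count was 0 of 10, beside 0.800% of the genes tested. At an unadjusted p under 0.05 in limma, 5 of the 10 genes were lower and 2 (CFL1 and CAP1) higher, beside 22.0% and 22.3% of the genes tested. With limma-voom on the recovered fragments 3 were lower and 0 higher, beside 4.04% and 1.62%. As the group was selected on this contrast, nothing is read from these counts. The groups did not overlap in 7 of the 10 genes, 5 of them lower and 2 higher in si-circVAMP3, beside 59.9% of all genes tested, 29.2% lower and 30.7% higher. They did not overlap either in 7 of 9 Arp2/3 genes and 36 of 53 other actin regulators described below. The median log2 difference was -0.21 over the 10 genes and 0.01 over all genes tested. Every one of the 10 genes passed the filter on low values, an FPKM of at least 1 in at least 2 libraries.

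The levels of the 10 genes spanned a 59.7-fold range in si-SCR. PFN1 stood highest at 679 ± 27.6 FPKM (SD, n = 3, also for the following means), followed by PFN2 at 199.7 ± 8.61, CFL1 at 154 ± 3.28 and CAP1 at 103 ± 3.67 FPKM. Below them came CFL2 at 50.8 ± 1.75, WDR1 at 43.5 ± 0.908 and DSTN at 23.7 ± 1.94 FPKM. TWF1 at 20.4 ± 0.612 and CAP2 at 19.5 ± 0.824 FPKM overlapped, and TWF2 was lowest at 11.4 ± 1.73 FPKM. In si-circVAMP3 the order of the first 5 became PFN1, CFL1, CAP1, PFN2 and CFL2, since PFN2 moved from rank 2 to rank 4. WDR1 moved from rank 6 to rank 8, at 14.8 ± 0.448 FPKM (SD, n = 2, also for the next means), and lay between CAP2 at 15.5 ± 0.275 and TWF2 at 12.7 ± 0.845 FPKM. TWF1 moved from rank 8 to rank 10, at 6.03 ± 0.328 FPKM.

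This order depends on the gene length behind the FPKM values. The length used for WDR1 was 7827 bases, against 2993 bases in its MANE Select transcript, and for CFL1 it was 5865 against 1245 bases. Divided by the length of that transcript instead, WDR1 stood at 113.8 ± 2.4 (SD, n = 3) scaled fragments per kilobase in si-SCR and took rank 5, while CFL1 took rank 2 and PFN2 rank 3. On that scale the range came out at 120.2-fold, with CAP2 rather than TWF2 lowest. The length recovered for CAP2, 1673 bases, is however shorter than its transcript of 2925 bases. A factor shared by all libraries cancels in the recovery and may be missing there, so the place of CAP2 and the range are uncertain. The plain ratio of 1 gene between conditions is not touched by this choice, whereas the difference in log2(FPKM + 1) depends on it slightly through the added 1. Gene names further list 10 pseudogene copies of PFN1, 8 of CFL1, 5 of DSTN, 2 each of TWF1 and CAP1 and 1 of CAP2, so the levels of these 6 genes are uncertain as far as fragments are shared with the copies. No such copy is named for WDR1, TWF2, CFL2 or PFN2.

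Expressed as shares within each family, the knock-down libraries held lower shares of TWF1, CFL2, DSTN, CAP2 and PFN2. As the shares of a family have a fixed sum, those of the other members are higher by construction. By itself this shows no gain of their RNA. TWF1 made up 63.0, 60.8 and 68.9% of the summed twinfilin FPKM in si-SCR and 34.1 and 30.3% in si-circVAMP3. TWF2 was thus the larger part in both si-circVAMP3 libraries and the smaller part in all 3 si-SCR libraries. The summed twinfilin level was 31.7 ± 1.22 FPKM (SD, n = 3) in si-SCR and 18.7 ± 0.52 FPKM (SD, n = 2) in si-circVAMP3, lower in both si-circVAMP3 libraries.

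The muscle cofilin CFL2 accounted for 22.0, 21.8 and 22.8% of ADF/cofilin FPKM in si-SCR and 16.4 and 15.9% in si-circVAMP3, and CFL1 for 67.4, 68.8 and 66.2% against 74.6 and 75.3%. DSTN made up 10.6, 9.4 and 11.0% in si-SCR and 9.0 and 8.8% in si-circVAMP3. The summed ADF/cofilin level was 229 ± 3.22 FPKM (SD, n = 3) against 246 ± 0.02 FPKM (SD, n = 2), and thus higher in si-circVAMP3 in spite of the lower CFL2. The share of CAP2 was 16.0, 15.7 and 16.1% in si-SCR and 10.7 and 11.0% in si-circVAMP3, and the summed level of both genes was 122.7 ± 4.45 FPKM (SD, n = 3) against 143.3 ± 5.39 FPKM (SD, n = 2), higher in si-circVAMP3. PFN2 gave 23.4, 21.7 and 23.1% of profilin FPKM in si-SCR and 13.7 and 12.9% in si-circVAMP3. The summed profilin level was 879 ± 30.4 FPKM (SD, n = 3) against 746 ± 17.8 FPKM (SD, n = 2). The size of these shares depends on the gene length as well. With the length of 1 transcript per gene, CFL2 made up 7.1, 7.0 and 7.5% of its family in si-SCR and 4.9 and 4.8% in si-circVAMP3. For CAP2 the values were 7.0, 6.8 and 7.0% against 4.5 and 4.6%, but they rest on its uncertain recovered length. TWF1 then made up 67.8, 65.7 and 73.3% against 39.0 and 35.0%, and PFN2 21.9, 20.2 and 21.5% against 12.7 and 11.9%.

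**Figure D2:**
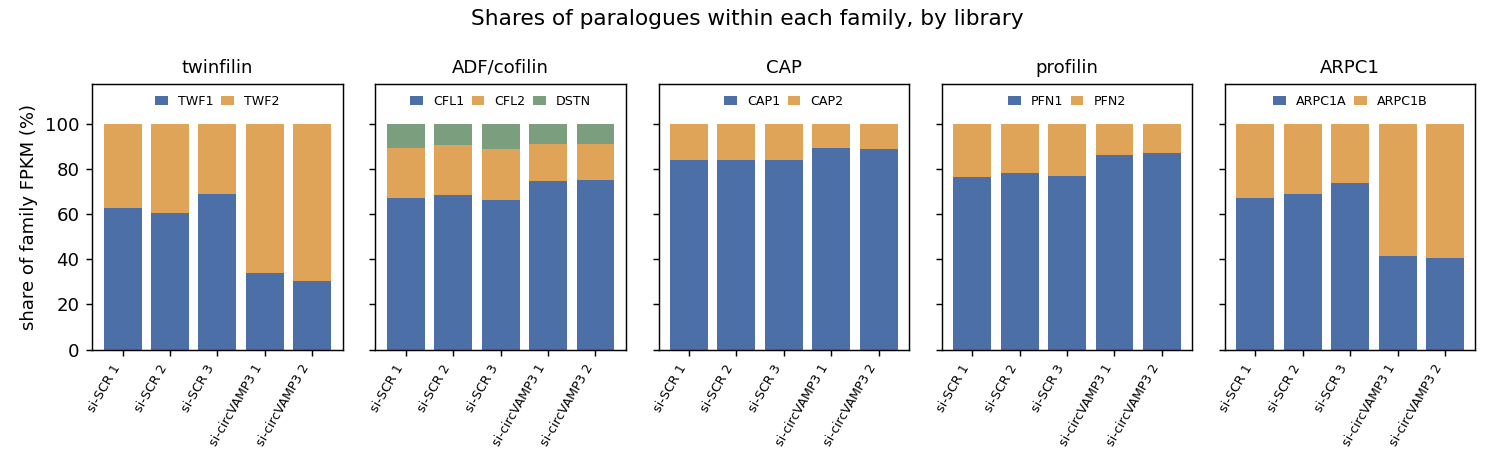
Share of each paralogue in the summed FPKM of its family (vertical axes, percent) in each of the 5 libraries (horizontal axes) for twinfilins, ADF/cofilins, cyclase-associated proteins, profilins and the ARPC1 subunits of the Arp2/3 complex. TWF1 and ARPC1A form the larger part in the si-SCR libraries and the smaller part in the si-circVAMP3 libraries.

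The Arp2/3 complex, which nucleates branched filaments that cofilin later takes apart, was compared as the most similar group. Of its 9 genes, 1 fell past both thresholds and 0 rose, beside 2.16% and 0.800% of all genes tested. At an unadjusted p under 0.05 in limma 1 was lower and 3 were higher, beside 22.0% and 22.3%, and limma-voom on the fragments gave 1 lower and 0 higher, beside 4.04% and 1.62%. The gene that fell was ARPC1A, which encodes a subunit of the complex. It was at 16.0, 16.5 and 17.1 FPKM in si-SCR and at 5.57 and 5.63 FPKM in si-circVAMP3, with a log2 difference of -1.41 (SE 0.05, adjusted p = 4.47e-05, limma with Benjamini-Hochberg), lower in 2 of 2 libraries. Its paralogue ARPC1B was at 7.79, 7.46 and 5.96 FPKM against 7.90 and 8.20 FPKM, with a log2 difference of 0.17 (SE 0.10, adjusted p = 0.239, limma with Benjamini-Hochberg), or 0.07 without si-SCR 3. ARPC1A gave 67.2, 68.9 and 74.1% of the summed FPKM of both in si-SCR and 41.3 and 40.7% in si-circVAMP3. With the length of 1 transcript per gene the shares were 50.4, 52.2 and 58.6% against 25.8 and 25.3%. ARPC4, the most abundant subunit gene at 79.4 ± 3.80 FPKM in si-SCR (SD, n = 3), had a log2 difference of 0.21 (SE 0.05). The median log2 difference over the 9 genes was 0.10.

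Among 73 other regulators of actin, 62 were listed and 53 passed the filter. Of these, 3 fell past both thresholds and 0 rose, beside 2.16% and 0.800% of all genes tested. At an unadjusted p under 0.05 in limma 12 were lower and 10 higher of 53, beside 22.0% and 22.3%. With limma-voom on the fragments 4 were lower, the additional gene being TMOD2, and 0 higher, beside 4.04% and 1.62%. By the adjusted p alone 11 were lower and 6 higher of 53, beside 16.7% and 16.0% of all genes tested. The median log2 difference of the 53 genes was 0.01, equal to that of all genes at this precision.

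The 3 genes that fell were ACTC1, LMOD3 and SRF. ACTC1, the cardiac actin that is also made in developing skeletal muscle, was at 313, 355 and 313 FPKM in si-SCR and at 169 and 175 FPKM in si-circVAMP3, with a log2 difference of -0.92 (SE 0.07, adjusted p = 0.000394, limma with Benjamini-Hochberg). LMOD3, a leiomodin that nucleates filaments in skeletal muscle, was at 6.73, 5.39 and 4.80 FPKM against 2.62 and 2.53 FPKM, with a log2 difference of -0.88 (SE 0.12, adjusted p = 0.00304, limma with Benjamini-Hochberg). SRF, the transcription factor whose cofactors sense free actin monomers, was at 29.8, 30.2 and 29.0 FPKM against 18.9 and 17.5 FPKM, with a log2 difference of -0.68 (SE 0.05, adjusted p = 0.00041, limma with Benjamini-Hochberg). Each was lower in 2 of 2 si-circVAMP3 libraries. The cofactor genes MRTFA and MRTFB had log2 differences of -0.09 (SE 0.08) and 0.13 (SE 0.06) and did not pass the test; that of MRTFA was -0.04 without si-SCR 1 and -0.15 without si-SCR 3.

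The most abundant gene of each remaining class stayed within the fold threshold. CAPZA1, TPM2 and ACTB passed the adjusted p alone, at 0.00131, 0.0245 and 0.0498 (limma with Benjamini-Hochberg). TMSB10, which encodes a thymosin that holds monomers, had the highest FPKM of all, 1136 ± 20.1 in si-SCR (SD, n = 3). Its log2 difference was -0.05 (SE 0.04). ACTB, the cytoplasmic actin, had a log2 difference of -0.15 (SE 0.05). With the length of 1 transcript per gene, ACTB stood higher, at 1764.9 scaled fragments per kilobase in si-SCR against 1135.7 for TMSB10. TPM2, a muscle tropomyosin, was at -0.22 (SE 0.06), CAPZA1, a capping protein subunit gene, at 0.42 (SE 0.04), DIAPH1, a formin gene, at 0.14 (SE 0.05), and PAK2, a kinase gene upstream of cofilin phosphorylation, at -0.01 (SE 0.05), or 0.03 without si-SCR 3.

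**Figure D3:**
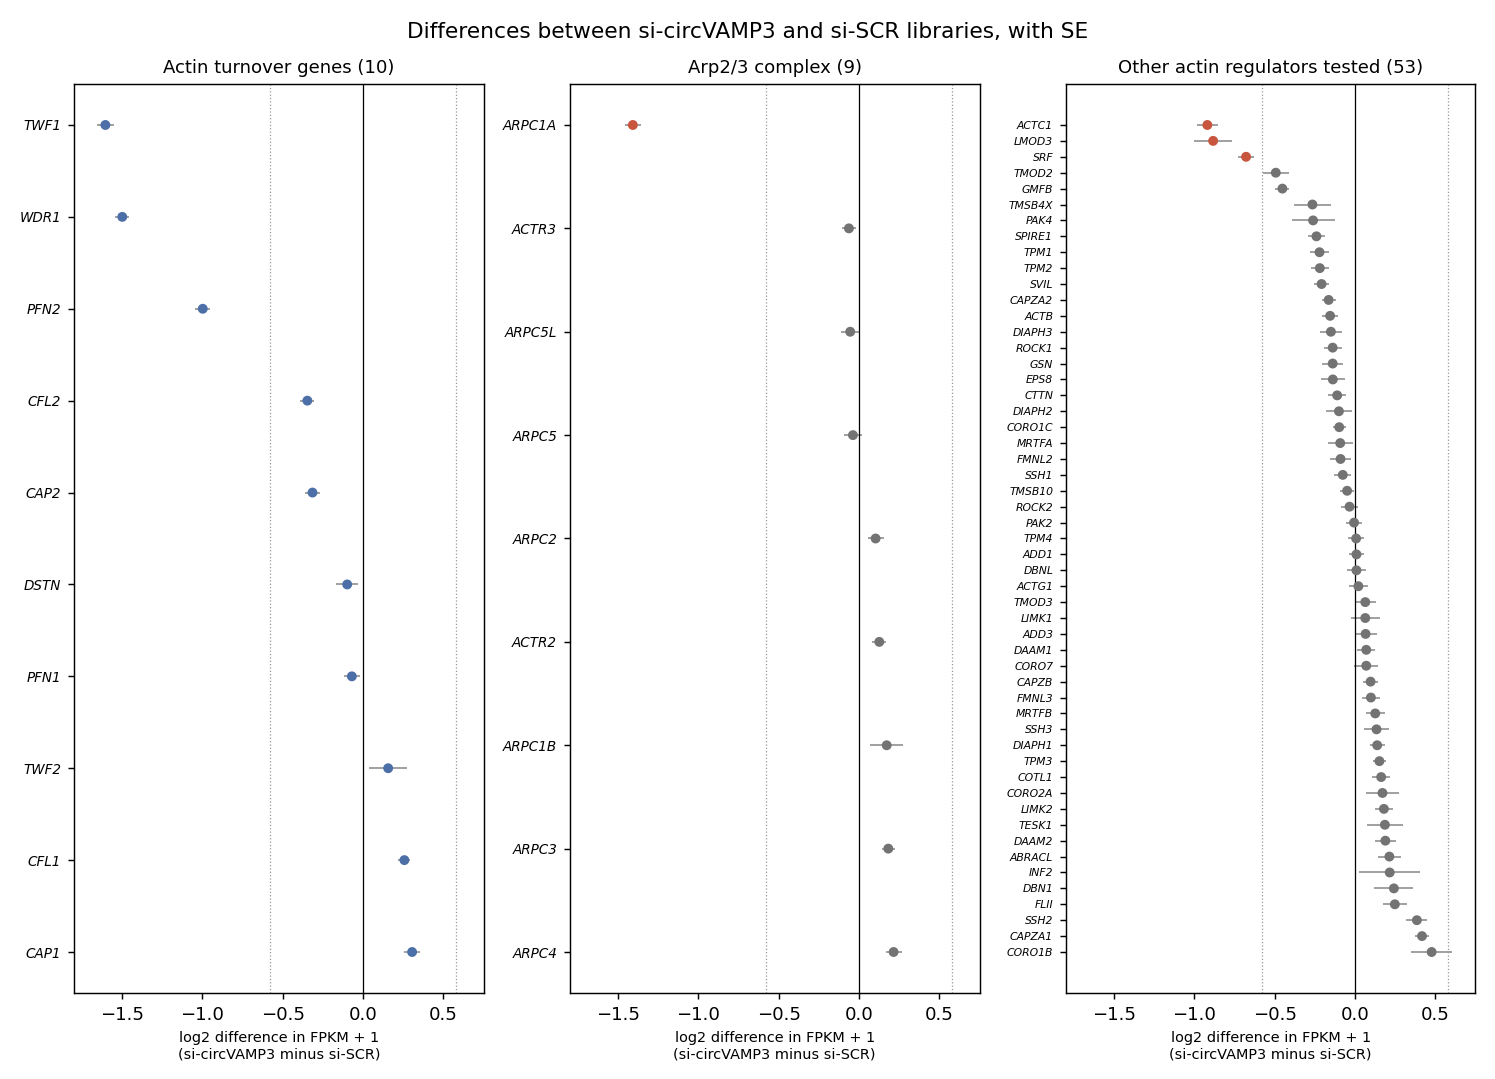
Log2 difference in FPKM + 1 (horizontal axes, si-circVAMP3 minus si-SCR, 2 against 3 libraries) with its SE for the 10 actin turnover genes (blue, shown as a description without calls), the 9 Arp2/3 genes and the 53 other regulators tested (red, past both thresholds; grey, not); dotted lines mark a difference of 0.58 in either direction. TWF1, WDR1 and ARPC1A lie near -1.5, and most other genes lie close to 0.

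The seed match was then counted over all transcripts, since 2 of the 10 actin turnover genes hold it. Of 10263 protein-coding genes tested, 1169 (11.39%) held GUGGACA in the 3′ UTR, as TWF1 does, and 8.47% of these were called lower, beside 2.17% of all protein-coding genes (0.428% were called higher, beside 0.809%). A further 1943 held it in the coding part and not in the 3′ UTR, as WDR1 and ARPC1A do, and 3.65% of these were called lower. Among the 7084 genes with no match, like PFN2 and the other 7 members, 0.72% were called lower. The median log2 differences of these classes were -0.10, -0.05 and 0.04. The classes also differed in length, with a median 3′ UTR of 2931 bases where it held a match and 1233 bases where it did not. Of genes with 1 match in the 3′ UTR 8.58% were called lower, and of those with 2 or more 7.58%. A run of 10 or more bases shared with the listed strand, as in TWF1 and VAMP3, occurred in 423 genes. Of these, 4.26% were called lower, and their median log2 difference was -0.01. The match to the seed of the listed strand, CGAUGAU, was in the 3′ UTR of 185 genes, of which 1.62% were called lower, and in the 3′ UTR of none of the 10 members. WDR1 holds these letters at 1 place outside its 3′ UTR. No mature miRNA among 2545 from RefSeq had the same bases 2 to 8.

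Among the actin genes the match and the difference did not always go together. ARPC1A holds 1 match in its coding part (chr7:99363562-99363568, plus strand) and SRF 1 in its 3′ UTR (chr6:43181418-43181424, plus strand).
ARPC1A, coding part, exon 9: cuauuuaugagGUGGACAa
SRF, 3′ UTR, exon 7: acccaggaauaGUGGACAu
ACTC1, LMOD3 and PFN2 were lower and hold none. Conversely, 10 of the 53 other regulators and 3 of the 9 Arp2/3 genes hold a match, and 9 and 2 of these, respectively, were not past both thresholds. Among all protein-coding genes tested 69.0% hold no match. Of those with one in the 3′ UTR 8.47% were called lower, and of those with one in the coding part and not in the 3′ UTR 3.65%. Most genes with a match were thus not called, and nothing is read from these counts about the actin genes. The part of the seed match in the differences was not tested, and no transcript was searched for matches to the control siRNA.

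**Figure D4:**
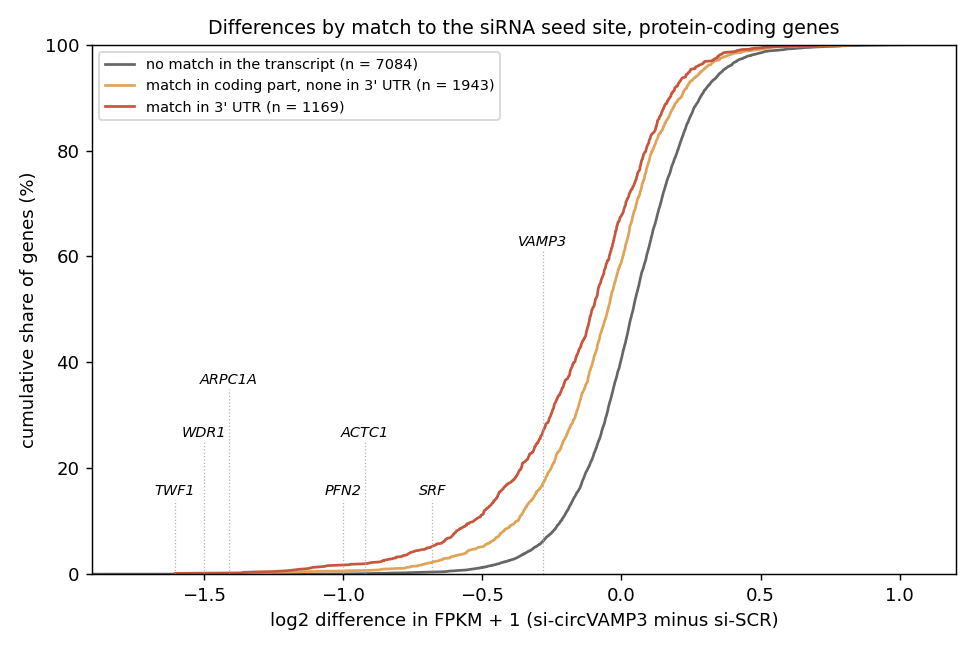
Cumulative share of protein-coding genes (vertical axis, percent) against the log2 difference in FPKM + 1 (horizontal axis, si-circVAMP3 minus si-SCR) for genes with a seed match in the 3′ UTR (red), in the coding part and not in the 3′ UTR (orange) or nowhere in the transcript (grey). The red curve lies furthest to the left, and dotted lines place 7 named genes, of which TWF1, WDR1 and ARPC1A lie toward the left end of the curves.

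By the distance over the 5 libraries of log2(FPKM + 1) relative to the si-SCR mean, the genes nearest to WDR1 were RYK (0.136), ARPC1A (0.166) and TWF1 (0.180). For TWF1 they were WDR1 (0.180), RYK (0.288) and ARPC1A (0.295). This distance mainly follows the contrast on which the group was selected, so the neighbours are a description only. RYK, which encodes a Wnt-binding receptor of the tyrosine kinase family, was at 9.47, 9.43 and 9.36 FPKM in si-SCR and at 2.92 and 2.91 FPKM in si-circVAMP3. Like WDR1, it holds GUGGACA at 2 places of its coding part. At least 1 such place, with none in the 3′ UTR, was found in 18.9% of protein-coding genes tested.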

How the data were processed

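Poly-A+ libraries of RH4 cells (3 si-SCR and 2 si-circVAMP3, described as biological replicates) were sequenced by the authors, who demultiplexed with bcl2fastq 2.20.0.422, trimmed with Trimmomatic, aligned with STAR 2.5.2b to GRCh38, counted with HTSeq in the stranded mode and computed the deposited FPKM values with edgeR. The filter they state, on genes under 1 CPM, does not describe all of the table, since 13193 of 13822 genes reached 1 CPM in at least 3 libraries. Symbols were matched for 13783 genes. Whole fragments and lengths were recovered from the FPKM ratios (relative tolerance 1e-11). As FPKM are not counts, log2(FPKM + 1) was fitted with limma 3.58.1 (trend) in R 4.3.3 on genes with an FPKM of at least 1 in at least 2 libraries, with Benjamini-Hochberg adjustment over 11253 genes. Genes were called at an adjusted p under 0.05 and a log2 difference of at least 0.58. The fit was tested on simulated data. Sequences came from GENCODE release 44; Python 3.11.15 made the tables. Members and gene lists were chosen with earlier results of these data known. Named are all members, the called and the most abundant genes of each list, the 3 genes nearest to WDR1 and to TWF1, VAMP3 and markers; MRTFA, MRTFB, ARPC1B and TMOD2 were added after their values were seen. Alternatives were other pseudocounts, filters, scalings, a fit without trend or fold threshold, a replicate block, leaving out each library and, added after seeing the data, limma-voom on the recovered fragments and, for levels and shares, transcript in place of gene length. Fragments limit counting precision only.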

Additional observations from a re-analysis of the deposited data

How the results depend on the processing

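The log2 differences of the 10 genes kept their sign under all 11 alternatives run on them, WDR1 ranging from -1.57 to -1.47, TWF1 from -1.77 to -1.56 and PFN2 from -1.03 to -0.97. The small differences moved most in proportion: TWF2 ranged from 0.04 (without si-SCR 3 and with the replicate block) to 0.23, DSTN from -0.16 to -0.05, and PFN1 from -0.25 (quantile normalisation) to -0.04. ARPC1A, ACTC1 and SRF kept their call under all 15 alternatives, and LMOD3 under 14 of 15, being below the filter on a mean FPKM of at least 5. Over all genes tested, 243 were called lower and 90 higher. These counts were 431 and 173 with a pseudocount of 0.1, 455 and 182 with limma-voom on the recovered fragments (added after seeing the data), and 1881 and 1797 without the fold threshold. A mean FPKM of at least 5 left 52 genes higher, with fewer genes tested. Without the fold threshold 11 other regulators were lower and 6 higher. The lower genes with a 3′ UTR seed match, 99 by the thresholds used, became 152 with limma-voom and 415 without the fold threshold. Where no construction explains a change, the cause was not tested. No pairing is stated beyond the replicate numbers. Same-numbered libraries deviated with correlations of -0.19 and -0.04. With 2 si-circVAMP3 libraries their deviations mirror each other, so these values cannot decide whether the replicates were paired. A fit with the replicate block called 243 genes lower and 93 higher. In this fit si-SCR 3 has no partner and does not enter the difference. Its counts and the differences of the 10 genes equal those without si-SCR 3, so it is no separate check of the pairing. With 2 si-circVAMP3 libraries, leaving out 1 leaves a lone library that is assumed to vary like the others.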
